A study of Mus musculus with 6 samples.

Results

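The 32 genes described here encode the enzymes and regulators with which a cell makes cholesterol and fatty acids. They were taken by symbol from a table of 46095 genes: 4 regulators and sterol transfer genes (Srebf1, Srebf2, Insig1 and Stard4), 17 enzymes of sterol synthesis, 4 enzymes of fatty acid synthesis, and 7 desaturases and elongases. All 32 matched a row and all 32 passed the filter on low counts, among 13215 genes tested. Expression was measured by RNA sequencing in bone marrow-derived macrophages of C57BL/6 mice aged 56 days, either wild type (WT) or Cd226-/-, which lack the activating receptor CD226, with 3 libraries of each genotype. Marrow cells of every library were grown for 7 days with M-CSF (20 ng/ml) and then received IFN-γ (20 ng/ml) with LPS (100 ng/ml) for 24 h, so the comparison is between genotypes in stimulated cells and holds no unstimulated control. The labels do not state whether replicates were separate mice or cultures, nor in which cells Cd226 is deleted, so p-values reflect the variation among these libraries, part or all of which may be technical.

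Sterol and fatty acid synthesis are driven by the SREBP transcription factors, products of Srebf1 and Srebf2, which are made as membrane proteins of the endoplasmic reticulum. When sterol is low, SCAP escorts them to the Golgi, where proteases release the active part, and INSIG proteins hold them back when sterol is high. SREBP-1 acts mainly on fatty acid genes, SREBP-2 mainly on sterol genes, and the liver X receptors, sensors of oxidised sterols, act on Srebf1 and on desaturase genes as well. In macrophages stimulated through Toll-like receptors and interferon, lipid synthesis and desaturation are known to be remodelled.

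The desaturase genes Scd1 and Scd2 were each more than doubled in Cd226-/- macrophages, and the genes of the other arms differed by less or had wide intervals. Scd1 rose 2.07-fold and Scd2 rose 2.29-fold, and these were the only 2 of the 32 genes to change at least 2-fold. Of the 4 fatty acid synthesis genes Acly, Acaca and Me1 fell, while Fasn did not pass the test. None of the 4 regulators passed the test, and of the 17 sterol synthesis genes 3 rose (Fdft1, Sqle and Ebp) and 1 fell (Dhcr7). In all, 5 of the 32 genes were higher and 5 lower by the quasi-likelihood test of edgeR (Benjamini-Hochberg adjusted p under 0.05). Over all tested genes 16.1% were called higher and 14.8% lower (2130 and 1956 genes, or 1773 and 2764 without TMM), 30.9% in either direction, so the 31.2% called here is near the background.

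**Figure D1:**
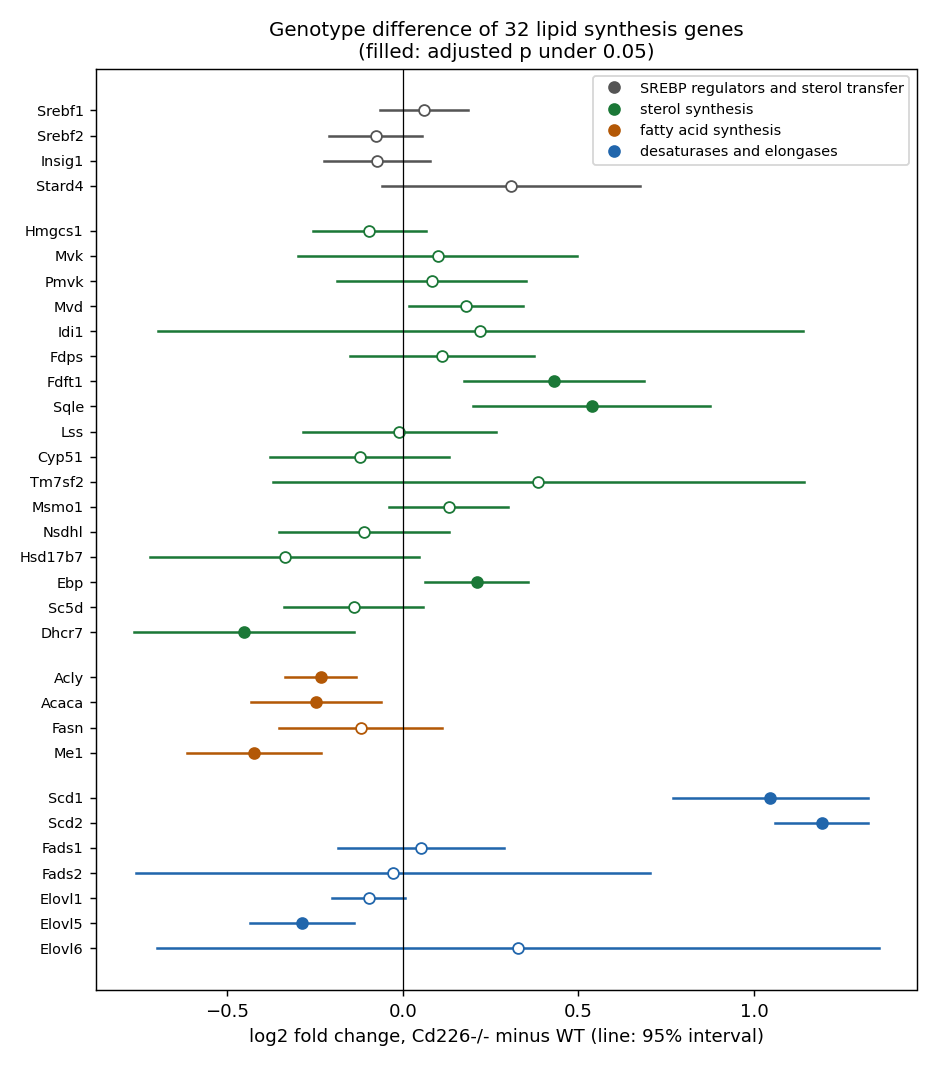
Log2 fold change (Cd226-/- minus WT, x axis) of each of the 32 genes, grouped by arm, with its 95% interval as a line; filled points passed at an adjusted p under 0.05. Scd1 (1.05) and Scd2 (1.19) stand to the right of the rest, and all 4 fatty acid synthesis genes lie left of 0.

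Libraries held 16838527 to 21658061 counts. For Cd226 itself the WT libraries gave 5, 17 and 23 counts and the Cd226-/- libraries 11, 10 and 8, too few to check the genotype labels. Cd226-/- replicates 2 and 3 were the most alike of the libraries of 1 genotype (chi-square over degrees of freedom 2.17), and replicate 1 stood apart from them (7.61 and 7.76). The 9 macrophage markers summed to 18017 to 19992 CPM (counts scaled to library size with TMM factors) in WT and 19296 to 20075 CPM in Cd226-/-. The 18 hepatocyte markers summed to 0.234 to 0.407 CPM in WT, 0.386 CPM in Cd226-/- replicate 1, and 30.5 and 32.6 CPM in Cd226-/- replicates 2 and 3. The 8 B-cell markers summed to 15.8 to 20.8 CPM in WT and 37.0 to 49.8 CPM in Cd226-/- (7 of 8 higher). The 5 stromal markers summed to 337 to 388 and 472 to 494 CPM (3 of 4 tested higher). The 6 dendritic cell markers summed to 40.6 to 57.0 and 65.5 to 76.0 CPM (1 of 3 tested higher). Most of that last sum was Ccr7, the 1 called higher, at a mean of 43.4 CPM in WT and 63.6 CPM in Cd226-/-. The dendritic cell marker Zbtb46 stayed at a mean of 4.28 and 4.38 CPM. The 7 adipocyte markers stayed at or below 0.438 CPM in every library, with Lep and Cfd at 0 counts throughout. The 9 neutrophil markers summed to 49.2 to 62.7 CPM in WT and 57.8 to 64.7 CPM in Cd226-/-, most of it S100a8 (means of 55.2 and 58.8 CPM). The 6 T and NK cell markers summed to 3.45 to 4.89 and 4.08 to 5.99 CPM. None of these neutrophil, T and NK cell markers was called. In bulk RNA, more cells of a type and more RNA per cell cannot be told apart.

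Scd1 and Scd2 lie near each other on mouse chromosome 19 (Scd1 at 44394455 to 44407879 on the minus strand, Scd2 at 44293674 to 44306864 on the plus strand, GRCm38). They encode related stearoyl-CoA desaturases, which put the first double bond into saturated fatty acids. Their coding sequences are 1068 and 1077 bases long, from GENCODE M21 transcripts of the same build. The longest stretch they share without a difference is 147 bases, shown in capitals with 20 bases on either side, because a read that falls wholly within it cannot be given to one gene. The first line is bases 503 to 689 of the Scd1 coding sequence and the next bases 512 to 698 of that of Scd2, counted from the start codon, 5′ to 3′.
Scd1: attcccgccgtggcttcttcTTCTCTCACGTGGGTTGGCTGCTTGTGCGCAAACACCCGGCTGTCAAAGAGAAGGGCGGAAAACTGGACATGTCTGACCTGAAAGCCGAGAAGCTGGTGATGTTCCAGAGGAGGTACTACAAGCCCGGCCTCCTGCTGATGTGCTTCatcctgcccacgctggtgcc
Scd2: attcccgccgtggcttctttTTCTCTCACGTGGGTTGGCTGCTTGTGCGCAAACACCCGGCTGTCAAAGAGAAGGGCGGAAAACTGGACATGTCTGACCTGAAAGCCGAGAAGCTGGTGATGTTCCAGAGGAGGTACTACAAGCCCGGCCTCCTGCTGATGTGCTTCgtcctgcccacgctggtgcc
Over whole transcripts, 4.56% of the 50-base words of Scd1 and 3.97% of those of Scd2 also occur in another gene's transcripts, mainly those of the Scd family. How the deposited counts treated reads that match several genes is not given in the sources used here.

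Scd1 had 8.55, 11.9 and 7.87 CPM in WT replicates 1 to 3 and 20.1, 17.8 and 20.2 CPM in Cd226-/- replicates 1 to 3. The lowest Cd226-/- library lay well above the highest WT library. The log2 fold change was 1.05 ± 0.13 (SE), with a 95% interval of 0.77 to 1.32 and an adjusted p of 4.15e-06. Scd2, the form known to prevail in brain, had 33.7, 36.7 and 37.5 CPM in WT and 86.2, 80.6 and 80.2 CPM in Cd226-/-. Its 3 Cd226-/- libraries clustered at more than double the WT level, with a log2 fold change of 1.19 ± 0.064 (SE), an interval of 1.06 to 1.33 and an adjusted p of 5.28e-12. Scd1 made up 20.2%, 24.5% and 17.3% of the counts of both genes in WT and 18.9%, 18.1% and 20.1% in Cd226-/-, so the ranges overlapped. The upper bounds of 26 of the other 30 genes lay below the lower bounds of both desaturases; the exceptions were Idi1, Sqle, Tm7sf2 and Elovl6, which had wide intervals. In Cd226-/- replicate 1, where the hepatocyte markers summed to 0.386 CPM, Scd1 and Scd2 were at 20.1 and 86.2 CPM. The part of hepatocyte, stromal, B-cell and dendritic cell transcripts in the rise was not tested.

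**Figure D2:**
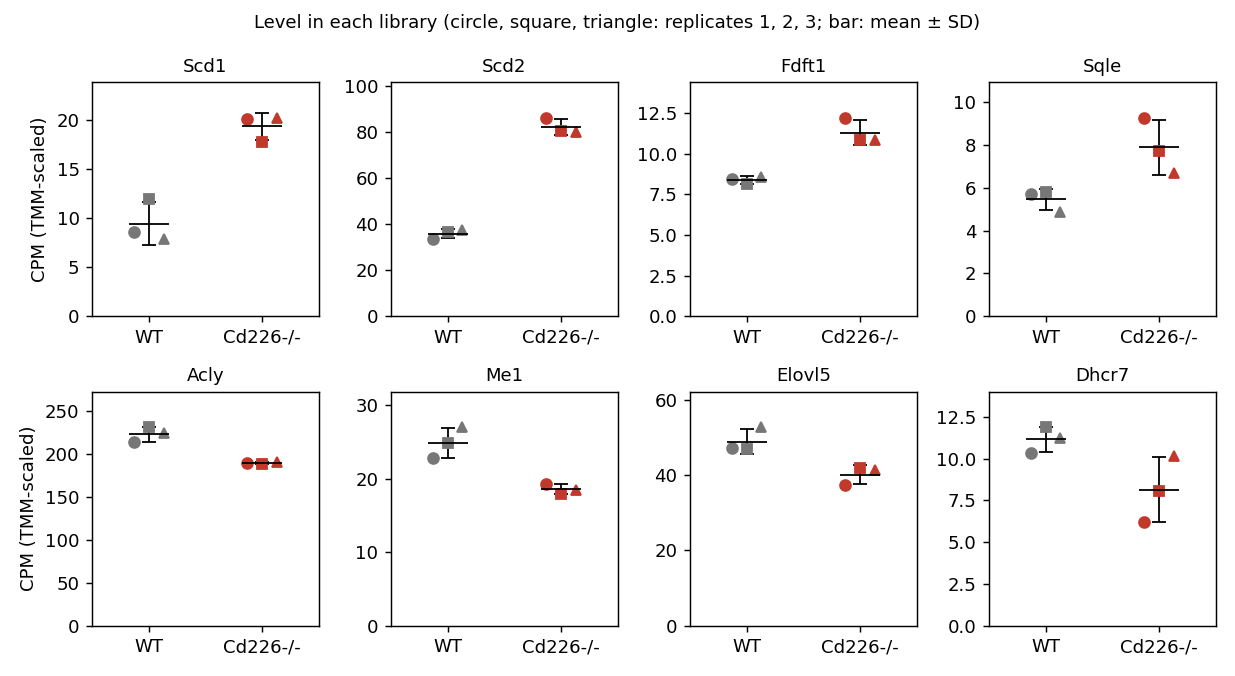
TMM-scaled CPM (y axis, from 0) of 8 of the genes that passed the test in each library, by genotype; points are replicates and bars the mean ± SD. Ebp and Acaca also passed but are not shown, and Acaca overlaps between genotypes. The 8 shown separate the 3 WT from the 3 Cd226-/- libraries. Such separation was found in 12 of the 32 genes and in 44.3% of all tested genes. The largest fitted fold changes are in Scd1 (2.07-fold) and Scd2 (2.29-fold), while Dhcr7 runs from 6.23 to 10.1 CPM within Cd226-/-.

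Of the other 5 desaturases and elongases 1 fell and none rose. Fads1 and Fads2, the delta-5 and delta-6 desaturases of polyunsaturated fatty acids, had log2 fold changes of 0.051 (95% interval -0.19 to 0.29, adjusted p = 0.770) and -0.029 (-0.76 to 0.70, adjusted p = 0.961). Fads1 lay at 13.5 to 15.7 CPM in WT and 12.8 to 15.9 CPM in Cd226-/-. Fads2 was near its detection limit, at 15 to 30 counts per library, so its wide interval leaves changes of either sign possible. Elovl5, the elongase of polyunsaturated fatty acids, had 47.2, 46.7 and 52.6 CPM in WT and 37.3, 41.7 and 41.2 CPM in Cd226-/-. It fell by 0.29 on the log2 scale (SE 0.071, adjusted p = 0.00374), with no overlap between genotypes. Elovl1, the elongase of very long saturated chains, went from 119 ± 1.28 to 111 ± 1.61 CPM (SD, n = 3), without overlap, yet the difference of -0.098 on the log2 scale missed the threshold (adjusted p = 0.145). It passed under scaling to the total count only (-0.15, adjusted p = 0.0220). Elovl6, which lengthens palmitate to the stearate that SCD uses, had only 6 to 20 counts per library and gave no usable comparison (log2 fold change 0.33, 95% interval -0.70 to 1.36). The median log2 fold change of the 7 genes, 0.051, hides the rise of 2 and the fall of 1, and compares with -0.0045 over all tested genes.

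Fatty acid synthesis was the arm in which all 4 log2 fold changes were negative. Of these genes 3 were called lower and none higher, against 14.8% lower and 16.1% higher of all tested genes. The median log2 fold change was -0.24, against -0.0045 over all tested genes. Acly, the ATP citrate lyase that supplies cytosolic acetyl-CoA, was the most abundant by CPM of the 32 genes. It had 214, 231 and 225 CPM in WT and 190, 188 and 191 CPM in Cd226-/-. The genotypes did not overlap, and Acly fell by 0.23 on the log2 scale (SE 0.049, adjusted p = 8.47e-04). Me1, the cytosolic malic enzyme that yields NADPH and a known target of NRF2, had 22.9, 24.9 and 27.0 CPM in WT and 19.3, 18.0 and 18.5 CPM in Cd226-/-. Every Cd226-/- library was below every WT library, with a fall of 0.42 (SE 0.091, adjusted p = 0.00111). With replicate 1 as the only Cd226-/- library Me1 just missed the threshold (-0.36, adjusted p = 0.0512).

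Acaca, the acetyl-CoA carboxylase that makes malonyl-CoA, was less firm. It had 42.7, 49.0 and 36.6 CPM in WT and 37.1, 36.5 and 34.2 CPM in Cd226-/-, and the genotypes overlapped, because the lowest WT library was below the highest Cd226-/- library. It fell by 0.25 (SE 0.089, adjusted p = 0.0408). The call was lost without WT replicate 1 (adjusted p = 0.111), WT replicate 2 (0.239, where the value was -0.14), Cd226-/- replicate 2 (0.0741) or Cd226-/- replicate 3 (0.152), when only replicate 1 stood for Cd226-/- (0.313), by DESeq2 (0.0634) and by limma-voom (0.0669). Over all alternatives its adjusted p ranged from 0.00422 to 0.313. Fasn, the synthase that builds palmitate, did not pass: it lay at 12.8 to 13.9 CPM in WT and 11.4 to 13.2 CPM in Cd226-/- (log2 fold change -0.12, 95% interval -0.35 to 0.11, adjusted p = 0.446). Of the 50-base words of Acaca 30.4% occur in other genes' transcripts, and of those of Me1 22.9%, so their counts are less certain, against 0 for Acly and Fasn.

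**Figure D3:**
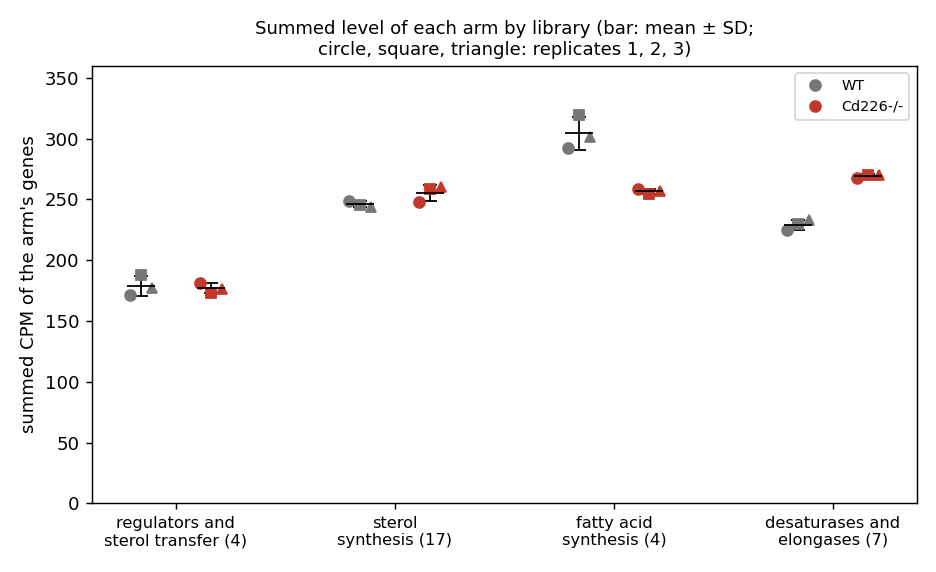
Summed TMM-scaled CPM of the genes of each arm (y axis, from 0) in each library, with the mean ± SD of each genotype. Fatty acid synthesis lies lower in Cd226-/- (257 ± 2.07 against 304 ± 13.6 CPM), and desaturases and elongases lie higher (269 ± 1.33 against 229 ± 4.23 CPM). The former sum is dominated by Acly, the latter by Elovl1 and Scd2. Within the latter, mean CPM went up from WT to Cd226-/- in Scd1 (9.45 to 19.4) and Scd2 (36.0 to 82.3). It went down in Elovl1 (119 to 111) and Elovl5 (48.9 to 40.1).

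The regulators did not differ detectably. Srebf1, whose count pools the SREBP-1a and SREBP-1c transcripts, had 60.1, 55.4 and 57.4 CPM in WT and 62.0, 58.5 and 59.7 CPM in Cd226-/-. The ranges overlapped, and the log2 fold change of 0.060 had a 95% interval of -0.065 to 0.19 (adjusted p = 0.483). Srebf2 had 65.0, 77.0 and 68.1 CPM in WT and 67.0, 65.9 and 66.0 CPM in Cd226-/- (log2 fold change -0.078, interval -0.21 to 0.054, adjusted p = 0.381). Insig1, itself a sensitive target of SREBP, had 41.2, 47.1 and 44.6 CPM in WT and 45.0, 39.7 and 41.4 CPM in Cd226-/-. It too overlapped between genotypes (log2 fold change -0.074, interval -0.22 to 0.076, adjusted p = 0.471). Stard4, a sterol carrier, was lower in abundance and spread more, at 4.93 to 8.36 CPM in WT and 7.11 to 9.42 CPM in Cd226-/- (log2 fold change 0.31, interval -0.059 to 0.67, adjusted p = 0.197). Transcript levels do not measure how much SREBP protein is cleaved.

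The sterol enzymes were mostly alike between genotypes, with single steps off the line. The median log2 fold change of the 17 was 0.099, 10 lay above 0 and 7 below, and they summed to 246 ± 2.32 CPM in WT against 256 ± 6.52 CPM in Cd226-/- (SD, n = 3). In the early mevalonate steps none of 6 passed. Hmgcs1, the synthase that makes HMG-CoA, had 33.4, 33.8 and 33.1 CPM in WT and 28.7, 32.1 and 33.1 CPM in Cd226-/- (log2 fold change -0.096, interval -0.26 to 0.065, adjusted p = 0.373). Mvk and Pmvk, the kinases of mevalonate and phosphomevalonate, had log2 fold changes of 0.099 and 0.082 with overlapping genotypes. Mvd, the decarboxylase, had 31.8, 28.0 and 31.2 CPM in WT and 32.5, 35.5 and 35.3 CPM in Cd226-/-. These did not overlap, but the difference missed the threshold (log2 fold change 0.18, adjusted p = 0.0850), which it passed without Cd226-/- replicate 1 (adjusted p = 0.0424). Idi1, the isomerase of isopentenyl diphosphate, had 10 to 34 counts per library, and Fdps, the farnesyl diphosphate synthase, lay at 8.59 to 10.1 CPM in WT and 9.53 to 10.5 CPM in Cd226-/-. Their counts are uncertain, as 17.7% and 26.2% of their 50-base words recur in other genes' transcripts, mostly predicted genes.

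Fdft1 and Sqle, the enzymes that make squalene from farnesyl diphosphate and then oxidise it, both rose. Fdft1, squalene synthase, had 8.44, 8.12 and 8.55 CPM in WT and 12.2, 10.9 and 10.8 CPM in Cd226-/-. All Cd226-/- libraries lay above all WT libraries, a 1.35-fold rise (log2 fold change 0.43 ± 0.12 (SE), adjusted p = 0.0107). The call held in all 14 alternatives that were fitted, though not at an adjusted p under 0.01 in the main fit. Of the 50-base words of Fdft1 9.38% also occur in transcripts of 1 other gene, Gm6781. Sqle, squalene epoxidase, had 5.70, 5.79 and 4.89 CPM in WT and 9.26, 7.73 and 6.70 CPM in Cd226-/-, highest in replicate 1. It rose 1.45-fold (0.54 ± 0.16 (SE), adjusted p = 0.0145), but did not stay under the threshold once WT replicate 3 (adjusted p = 0.0733) or Cd226-/- replicate 1 (0.0745) was left out. Its adjusted p ran from 0.00851 to 0.0745 across the alternatives.

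Past squalene, the enzymes that close and trim the sterol ring showed no common direction. Lss, the lanosterol synthase, had 11.2, 12.2 and 12.4 CPM in WT and 9.26, 13.1 and 13.3 CPM in Cd226-/-, so that replicate 1 was lowest and the others highest (log2 fold change -0.011, adjusted p = 0.962). Cyp51 and Nsdhl, which remove methyl groups from lanosterol, had log2 fold changes of -0.12 and -0.11, Msmo1, which acts in the same demethylation, 0.13, and Hsd17b7, the keto-reductase, -0.34 (adjusted p from 0.176 to 0.505). Tm7sf2, a sterol reductase, had only 14 to 38 counts per library (log2 fold change 0.39, interval -0.37 to 1.14). Sc5d, the desaturase of the ring, lay at 20.8 to 23.6 CPM in WT and 18.0 to 21.4 CPM in Cd226-/- (log2 fold change -0.14, adjusted p = 0.279).

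Ebp and Dhcr7, late steps of the ring, passed in opposite directions. Ebp, the sterol isomerase, had 32.7, 31.9 and 33.2 CPM in WT and 37.5, 38.6 and 36.9 CPM in Cd226-/-, a small rise without overlap (1.16-fold, log2 fold change 0.21 ± 0.071 (SE), adjusted p = 0.0276). The Ebp call was lost in 8 of 14 alternatives: without WT replicate 1 (adjusted p = 0.0688), WT replicate 2 (0.0765), Cd226-/- replicate 2 (0.104) or Cd226-/- replicate 3 (0.0520), by total count alone (0.0985), with no filter (0.0660), by DESeq2 (0.0533) and when only replicate 1 stood for Cd226-/- (0.186), while the value stayed between 0.16 and 0.23. Its adjusted p over all of them ranged from 0.0172 to 0.186. Dhcr7, which makes cholesterol from 7-dehydrocholesterol, had 10.4, 11.9 and 11.2 CPM in WT and 6.23, 8.03 and 10.1 CPM in Cd226-/-, the replicates of the latter being spread widely. It fell by 0.45 (SE 0.15, adjusted p = 0.0259), lost the call without WT replicate 2 (0.0934), WT replicate 3 (0.0751) or Cd226-/- replicate 2 (0.0660), and was at -0.29 without Cd226-/- replicate 1 (adjusted p = 0.114). Over all alternatives its adjusted p ranged from 0.00183 to 0.114.

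Of the 22 genes that did not pass, 16 had a 95% interval within 0.5 of 0 on the log2 scale. The 6 with wider intervals were Stard4, Idi1, Tm7sf2, Hsd17b7, Fads2 and Elovl6, for which the counts could not show a moderate difference.

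Levels between genes were compared per kilobase of annotated exon. This length is too long for genes with many minor transcripts, whose level per kilobase is then too low. In WT the highest were Elovl1 (43.5 ± 0.469 CPM per kb) and Acly (42.3 ± 1.68 CPM per kb), which did not differ beyond their spread, followed by Mvd (16.3 ± 1.09), Insig1 (14.3 ± 0.956), Ebp (14.1 ± 0.273) and Elovl5 (13.9 ± 0.923), the last 3 also within their spread of each other. Scd2 was at position 11 of 32 in WT (6.58 ± 0.367 CPM per kb) and at position 5 in Cd226-/- (15.1 ± 0.611), and Scd1 went from position 22 (1.93 ± 0.443) to 15 (3.96 ± 0.278). Fasn stood at 1.21 ± 0.0535 CPM per kb in WT, far below Acly, and Elovl6 was last in both genotypes (0.0822 ± 0.0241 and 0.104 ± 0.0566).

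**Figure D4:**
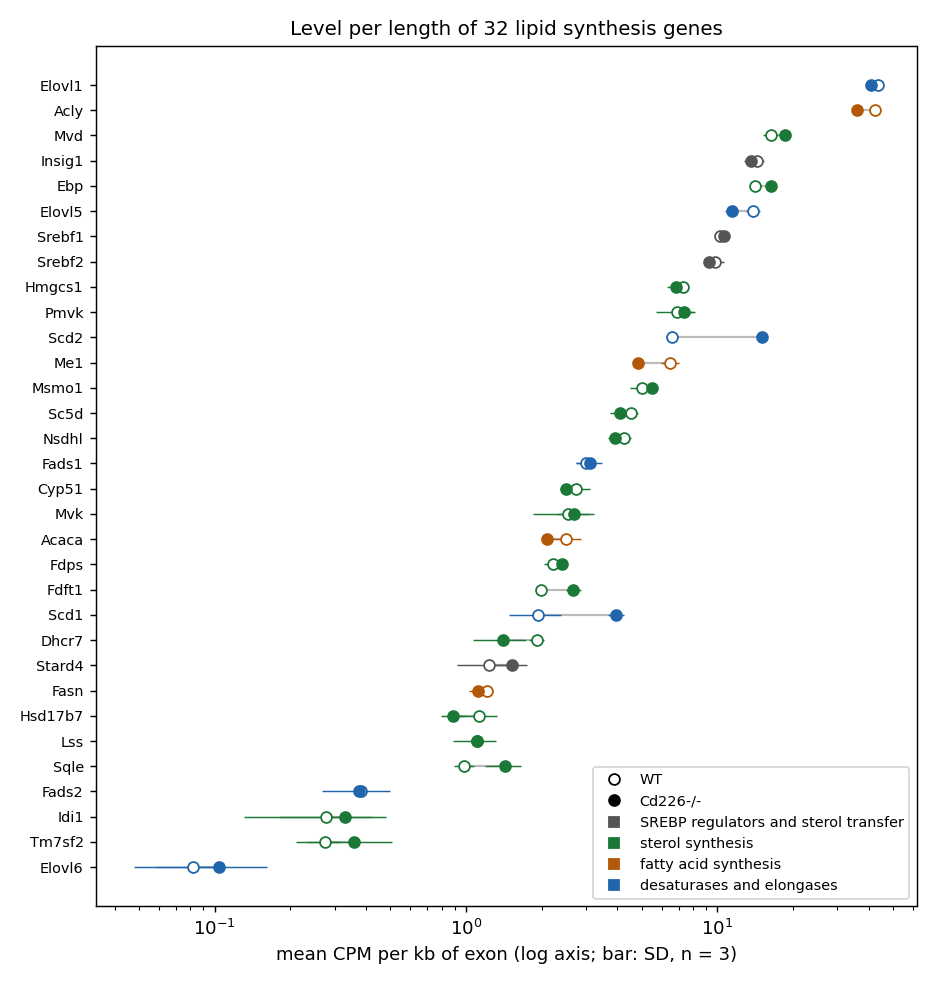
Mean CPM per kilobase of exon (log axis) of the 32 genes in WT (open) and Cd226-/- (filled), ordered by the WT level and coloured by arm; bars are the SD of 3 libraries. Scd1 and Scd2 have the longest connecting lines, while Elovl1 and Acly stay at the top in both genotypes.

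Stretches before the transcription start were available for 25 of the 32 genes (RefSeq, GRCm38.p6); Stard4, Fdps, Fdft1, Sqle, Scd1, Scd2 and Fads1 had none in the table. The 250 bases before each start were searched on both strands for the core of the sterol regulatory element, the SREBP site (CACNCCAC), for the E-box CACGTG, which SREBP also binds, and for CCAAT, the site of the cofactor NF-Y. The SRE core was in 2 of the 25 genes, Insig1 and Hmgcs1. By stretch, it was in 2 of the 32 of these genes, against 5.29% of all 32851 such stretches available. The E-box was in 5 of the 25 genes (5 of their 32 stretches) and in 6.02% of all stretches. CCAAT was in 21 of the 25 genes (22 of their 32 stretches) and in 33.8% of all stretches. A match is a run of letters and does not show binding.

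Shown are 4 of these stretches, with every match in capitals: the only ones with an SRE core, from Hmgcs1 and Insig1, which did not differ between genotypes beyond the test, and those of Ebp, which rose, and Elovl5, which fell. They lie at chr13:119690101-119690350 (plus strand) for Hmgcs1, chr5:28071162-28071411 (plus) for Insig1, chrX:8193513-8193762 (minus) for Ebp and chr9:77917115-77917364 (plus) for Elovl5, each printed 5′ to 3′ and ending just before the start.
Hmgcs1: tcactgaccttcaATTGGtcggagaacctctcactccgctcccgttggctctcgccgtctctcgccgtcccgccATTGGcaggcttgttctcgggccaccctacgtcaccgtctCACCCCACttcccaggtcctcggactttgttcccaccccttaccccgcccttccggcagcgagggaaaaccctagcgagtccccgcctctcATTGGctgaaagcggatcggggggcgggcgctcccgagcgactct
Insig1: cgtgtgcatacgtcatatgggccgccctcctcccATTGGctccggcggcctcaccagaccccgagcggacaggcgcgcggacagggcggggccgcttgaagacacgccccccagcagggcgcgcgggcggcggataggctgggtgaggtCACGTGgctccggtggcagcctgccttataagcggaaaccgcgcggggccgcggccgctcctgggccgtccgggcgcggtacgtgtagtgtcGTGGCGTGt
Ebp: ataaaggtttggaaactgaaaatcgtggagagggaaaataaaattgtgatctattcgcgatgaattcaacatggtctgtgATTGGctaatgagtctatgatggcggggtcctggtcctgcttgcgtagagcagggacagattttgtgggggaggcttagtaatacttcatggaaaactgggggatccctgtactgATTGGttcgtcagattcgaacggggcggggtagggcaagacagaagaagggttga
Elovl5: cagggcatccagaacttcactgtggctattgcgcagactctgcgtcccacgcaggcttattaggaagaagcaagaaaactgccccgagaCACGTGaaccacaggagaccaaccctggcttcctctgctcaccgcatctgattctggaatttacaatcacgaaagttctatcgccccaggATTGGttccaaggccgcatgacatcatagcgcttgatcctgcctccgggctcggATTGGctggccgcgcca
No match overlaps another in these 4. The SRE core starts 136 bases before the start in Hmgcs1 and 9 bases before it, on the other strand, in Insig1. Ebp and Elovl5 each hold CCAAT in 2 places, at 170 and 55 bases in Ebp and at 71 and 17 bases in Elovl5, all on the other strand, though their levels went opposite ways.

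Genes around the pathway were described from 5 further lists, whose counts are to be read against the 30.9% of all tested genes that were called (16.1% higher, 14.8% lower). Of 10 genes of SREBP processing and sterol sensing 1 rose and 3 fell, or 40% called in either direction. Scap, the escort of SREBP, had 35.1, 37.1 and 40.1 CPM in WT and 30.8, 26.0 and 26.7 CPM in Cd226-/-, without overlap, and fell by 0.43 (SE 0.083, adjusted p = 4.05e-04). With replicate 1 as the only Cd226-/- library it was at -0.28 and missed the threshold (adjusted p = 0.0766). Rnf145, a ubiquitin ligase that acts on sterol synthesis and SCAP, rose 1.26-fold (adjusted p = 1.69e-04). Ube2g2 and Erlin1, which act in the degradation of sterol-regulated proteins, fell by 0.16 and 0.15 (adjusted p of 0.0375 and 0.0497), calls that were lost in 7 and 13 of 14 alternatives.

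Of 7 tested receptors and targets of LXR and PPAR 2 rose and none fell, or 28.6% called against 30.9% of all tested genes. Nr1h3, which encodes LXRα, had 66.8, 68.4 and 66.3 CPM in WT and 120, 96.8 and 100 CPM in Cd226-/-, a 1.57-fold rise (adjusted p = 4.36e-07) in every library. The sterol efflux gene Abcg1 rose 1.29-fold (adjusted p = 7.34e-05), whereas Abca1, also an LXR target, was at 703 ± 68.5 and 713 ± 31.4 CPM (SD, n = 3; adjusted p = 0.839). Among 10 other isoprenoid, sterol and oxysterol genes 2 rose and 2 fell, and Ch25h, which makes 25-hydroxycholesterol, rose 2.02-fold, from 35.2 ± 2.92 to 71.1 ± 7.28 CPM (SD, n = 3; adjusted p = 7.05e-09). Npc2, which carries cholesterol out of lysosomes, rose 1.15-fold (adjusted p = 0.00807), or 0.0531 without WT replicate 1. Its partner Npc1 and the geranylgeranyl diphosphate synthase Ggps1 fell by 0.14 and 0.22 (adjusted p of 0.0467 and 0.0334), but these calls were lost in 8 and 6 of 14 alternatives.

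Of 25 tested genes of fatty acid activation, elongation and glycerolipid synthesis 7 rose and 6 fell. Acss2, which makes cytosolic acetyl-CoA from acetate and is a known SREBP target, fell by 0.61, from 36.1 ± 1.14 to 23.6 ± 2.74 CPM (SD, n = 3), with an adjusted p of 1.13e-05. Lpcat3 and Agpat3, acyltransferases of phospholipid synthesis, fell by 0.38 and 0.37. Acsl1, an acyl-CoA synthetase, rose 1.36-fold to 1778 ± 103 CPM (SD, n = 3). Slc25a1, the mitochondrial citrate carrier, rose from 19, 18 and 13 counts in WT to 84, 36 and 47 counts in Cd226-/-, highest in replicate 1, and Dgat2, the acyltransferase that completes triglycerides, rose from 1.36 ± 0.648 to 3.69 ± 0.0424 CPM (SD, n = 3). All 6 tested sources of NADPH passed, 2 higher and 4 lower. Idh1, the cytosolic isocitrate dehydrogenase, fell by 0.84, from 173 ± 10.8 to 96.5 ± 4.01 CPM (SD, n = 3; adjusted p = 1.98e-10), Mthfd1 of folate metabolism by 0.48 and G6pdx of the pentose phosphate pathway by 0.19, while the mitochondrial genes Nnt and Me2 rose 1.62-fold and 1.24-fold.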

How the data were processed

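RNA was extracted with Trizol and libraries followed Illumina procedures, per the labels' protocols. The authors deposited raw read counts per gene symbol, 1 column for each of 6 libraries. Reads were aligned with HISAT2 to GRCm38, per the submitters' processing notes; for the counting tool, annotation and strand, nothing is stated, so reads of genes that overlap or lie antisense may be mixed. There were 0 unused columns of per-sample values and 0 rows without a gene name. Counts were filtered with filterByExpr, scaled by TMM and tested across 13215 genes with edgeR 4.0.16 (R 4.3.3), robust quasi-likelihood F-test, two-sided, genotype as the only term, Benjamini-Hochberg adjustment, called at an adjusted p under 0.05. The SE is the log2 fold change over the square root of F, and 95% intervals use its t quantile. One count was worth 0.0452 to 0.0600 CPM, and a count of 0 allows up to 3 counts, which covers counting error only. The biological coefficient of variation was 6.75%. The steps were tested on simulated data.

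The members, arms and lists were chosen with earlier results of these data known. The rule for naming was all 32 members, up to 3 called genes in each direction of each further list, and Nr1h3, Abca1, Scap and Cd226. Alternatives were DESeq2 (1.42.0) size factors or Wald test, limma-voom (limma 3.58.1), total count alone, no filter, a mean of at least 5 CPM, a block on replicate number, leaving out each library in turn, Cd226-/- replicate 1 alone (its spread assumed to be that of WT) and an adjusted p under 0.01. Gene positions and exon lengths come from GENCODE M21, promoter stretches from RefSeq, both GRCm38. In the 50-base word search only the sense strand of transcripts was read.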

Additional observations from a re-analysis of the deposited data

How the results depend on the processing

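Scd1, Scd2, Fdft1, Acly and Elovl5 kept their call in all 14 alternatives fitted, no called gene of the 32 changed sign, and 2 uncalled genes (Mvd and Elovl1) passed in 1 alternative each. The number of the 32 called lower was 3 when only replicate 1 stood for Cd226-/- and 3 to 4 with a library left out (3 without WT replicate 2 or Cd226-/- replicate 2); the cause was not tested. At an adjusted p under 0.01, 2 were higher and 3 lower, and 2636 genes were called in all. Scaling by total count alone gave 4 of the 32 higher and 6 lower, and over all genes 1773 higher and 2764 lower against 2130 and 1956 with TMM. The median log2 fold change of the fatty acid arm was -0.29 by total count alone and -0.29 to -0.18 with a library left out. That of desaturases and elongases was -0.11 with Cd226-/- replicate 1 only and -0.033 to 0.19 with a library left out, and that of sterol synthesis 0.035 to 0.11; the cause was not tested.

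Some uncalled genes changed sign. With Cd226-/- replicate 1 only the values were 0.030 for Insig1, -0.82 for Idi1, -0.16 for Fads1, 0.0079 for Fads2, -0.27 for Elovl6 and -0.045 for Abca1. By total count alone Fads1 was at -0.00086 and Abca1 at -0.033, at a mean of 5 CPM Lss at 0.0013, and by limma-voom Fads2 at 0.012. With a library left out the ranges were -0.13 to 0.24 for Mvk, -0.033 to 0.21 for Pmvk, -0.058 to 0.75 for Idi1, -0.098 to 0.14 for Lss, -0.22 to 0.19 for Fads2, -0.21 to 0.56 for Elovl6 and -0.038 to 0.098 for Abca1. With the replicate block 4137 genes were called, 5 of the 32 higher and 5 lower, as without it. Same-numbered libraries correlated at 0.012, -0.013 and 0.012 in their deviations from the genotype means. No pairing by number was seen, but 3 libraries of each genotype cannot exclude one. Depth limits Idi1, Tm7sf2, Fads2 and Elovl6, all under 2 CPM in the mean of each genotype.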
